A study of Arabidopsis thaliana with 9 samples.

Results

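The histone genes described here are 39 genes of Arabidopsis thaliana, named one by one by their locus identifiers and read from the deposited expression table, which held 33871 loci. Of these loci, 19569 had a usable value in every library and a mean of at least 1 FPKM (fragments per length of the locus and per size of the library), and all 39 histone genes were among them. They comprised 8 H4, 5 H3.1, 3 H3.3, 4 canonical H2A, 3 H2A.W, 2 H2A.X, 3 H2A.Z, 8 H2B and 3 linker H1 genes. The H4, H3.1, canonical H2A and H2B genes, 25 in all, are called replication-dependent below, and the 11 H3.3, H2A.W, H2A.X and H2A.Z genes are called variants.

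The measurements are mRNA levels in inflorescences, from 9 RNA-seq libraries. There were 3 libraries of untreated tissue, 3 of tissue given cycloheximide for 2 h and 3 of tissue given dexamethasone together with cycloheximide for 2 h. Every plant was of the genotype 35S:AP1-GR ap1,cal, was about 5 weeks old and was grown in long days at 22 °C, so the controls carry the same transgene and mutations as the treated plants. The ap1 and cal mutations replace flowers with masses of meristems, and 35S, a constitutive viral promoter, drives a fusion of APETALA1 to the steroid-binding part of the glucocorticoid receptor in most cell types rather than in the AP1 domain alone. Dexamethasone lets this fusion enter the nucleus, and cycloheximide blocks translation elongation, so that changes needing a newly made protein are held back. Dexamethasone was given only together with cycloheximide, and no vehicle-only group was among the libraries analysed here.

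A nucleosome holds H2A, H2B, H3 and H4, and H1 binds the linker DNA between nucleosomes. Replication-dependent histones are made mainly in S phase to package new DNA, and the CAF-1 chaperone deposits H3.1 behind the replication fork. Variants are also made outside S phase: H3.3 replaces H3.1 at transcribed genes, H2A.Z marks the first nucleosomes of genes and the bodies of inducible genes, H2A.W belongs to heterochromatin, and H2A.X is phosphorylated at DNA breaks. Plant replication-dependent histone mRNAs carry poly(A) tails, unlike most of those of animals, so libraries selected on poly(A) contain them. In metazoan cells, inhibitors of translation are known to stabilise replication-dependent histone mRNA, and the first question for these libraries is how the plant genes behaved in cycloheximide.

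The H3 genes show how close the members are. The 5 H3.1 genes have 5 different coding sequences, 80.3% to 89.5% identical, for 1 protein, and the 3 H3.3 genes likewise encode 1 protein. The proteins of the H3.1 and H3.3 genes differ at 4 residues, 31, 41, 87 and 90, counted from the residue after the initiator methionine. The lines below give codons 85 to 92 of both classes, from the RefSeq annotation of TAIR10.1, with codons 87 and 90 in capitals, since these short stretches are part of what separates the reads of both classes.
AT1G09200 (H3.1): cagagcAGTgccgtcGCCgctctt
AT5G65360 (H3.1): cagagcAGCgccgtcGCAgcactt
AT5G10390 (H3.1): cagagcAGTgctgttGCTgcttta
AT4G40030 (H3.3): cagagcCATgctgtcTTAgctctc
AT4G40040 (H3.3): cagagcCATgctgtgCTTgcactc
AT5G10980 (H3.3): cagagtCACgcggtgTTAgctctt
The 8 H4 genes also encode 1 protein, from coding sequences of 312 bases that are 78.8% to 98.1% identical. Identity ran from 78.1% to 93.2% among the H2B genes and from 72.6% to 81.8% among the H2A.Z genes. No source used here says how the authors' counting divided reads between such copies, so values of single H4, H3 and H2B genes are less certain than those of their family.

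Plant histone promoters are known for short elements, among them the octamer CGCGGATC and the ACGT-core hexamer element, here searched as CCACGTCA. Exact matches on either strand in the 500 bases before the start codon were counted in the RefSeq genome for 27443 genes. The octamer was present in 0.189% of these windows, and in 8 of the 25 replication-dependent genes, 1 of the 11 variants and 1 of the 3 H1 genes. CCACGTCA occurred in 1.85% of all windows and in 7 histone genes, 4 of them H2B genes. The stretches below are given 5′ to 3′ on the strand of the gene, with the match in capitals (reversed in RAT5), because they show each element in replication-dependent genes and in 1 variant: HTA6 for the octamer and AT5G10980 for CCACGTCA. The window can reach into the 5′ end of the transcript, and the RAT5 match lies inside the annotated gene. So do 3 that are not shown: that of HTB4, a second one of AT2G28720 and the HTB2 match 147 bases before the start codon.
AT1G09200 (H3.1, chr1:2972407-2972434, minus strand): cgtaccttcaCGCGGATCagtgttagaa
AT1G09200 (H3.1, chr1:2972336-2972363, minus strand): tgtgatttcaCGCGGATCgtgatagaaa
AT5G65360 (H3.1, chr5:26120690-26120717, minus strand): ttagacgtgaCGCGGATCactaaaatta
AT5G54640 (RAT5, H2A, chr5:22196391-22196418, plus strand): aaacctcttcGATCCGCGtactctattc
AT5G59870 (HTA6, H2A.W, chr5:24116319-24116346, minus strand): tacatagtcaCGCGGATCgtgctttatt
AT2G37470 (H2B, chr2:15736667-15736694, plus strand): tttatttaagCCACGTCAtcgatcctcg
AT3G46030 (HTB11, H2B, chr3:16914204-16914231, minus strand): gtaatatattCCACGTCAtcaatcctcg
AT2G28720 (H2B, chr2:12326746-12326773, plus strand): ctaacgtgatCCACGTCAccaacgatac
AT5G10980 (H3.3, chr5:3473616-3473643, minus strand): acaaaactagCCACGTCAtcgatcctcc
The 12 octamer matches lay 139 to 292 bases before the start codon, as the map of motif positions shows. Neither element was found in these windows of the 3 H2A.Z genes.

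**Figure D1:**
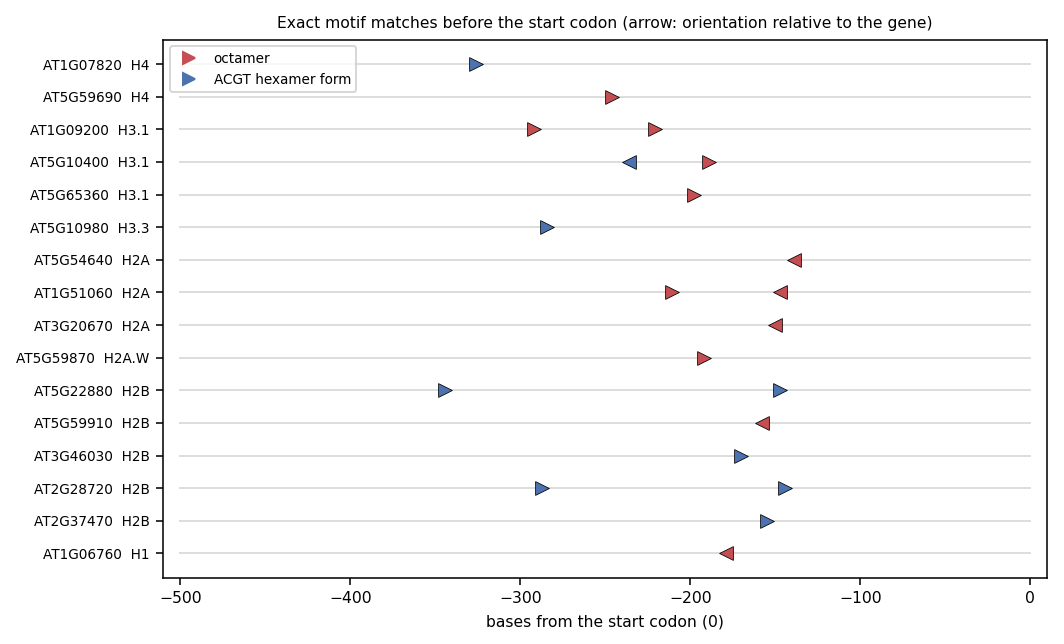
Exact matches to the octamer (red) and the ACGT hexamer form (blue) in the 500 bases before the start codon of the histone genes that hold either; the x axis is distance in bases, and arrows give orientation. Octamer matches sit between 139 and 292 bases before the start codon.

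Other elements were searched in the same way. The E2F site TTTCCCGC, found in 1.32% of all windows, was present before 1 histone gene, the H2A.Z gene HTA9. That match begins 8 bases before the start codon, inside the annotated gene. TTTGGCGC, in 0.645% of all windows, was present before 3 replication-dependent genes. The telo box AAACCCTA, in 15.3% of all windows, was present before 5 variants and 1 replication-dependent gene. The nonamer CATCCAACG (0.248% of windows) preceded no histone gene, and the M-phase core CCAACGG (2.62%) preceded 5.

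Some table entries do not hold a single gene. The H2A.X gene AT1G08880 (H2AXA) was listed in a merged locus of 51 genes on chromosome 1, of which it covers 0.457%, so its values are not those of H2AXA and are left out of all sums. The H3.1 gene AT3G27360 covers 22.8% of its locus, which it shares with AT3G27380, and the H2B gene AT3G53650 covers 27.0% of a locus of 3 genes. The other 36 are 31 that stood alone and 5 whose entry also names a neighbour: HTA13, HTA9, GAMMA-H2AX, HTB9 and the H1 gene AT1G06760. Of these 5, HTB9 covers only 75.7% of its locus, so its values may include the neighbour. The kit named in the labels does not mark strand, whereas the series' design text describes a strand-specific protocol, and reads of antisense neighbours may be included. The depth behind each value is unknown, because no source used here gives the reads per library.

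Histone mRNAs were abundant in untreated inflorescences. Outside the merged locus, the median histone gene had 188 FPKM in untreated libraries against 18.6 FPKM for the median tested locus, and all 38 were above that median. The H3.1 gene AT1G09200 was the most abundant at 1028 FPKM, followed by the H3.3 genes AT4G40040 and AT4G40030 at 932 and 925 FPKM, which overlapped each other, and by the H2B gene HTB4 at 585 FPKM. The H2A.W gene HTA12 was the lowest at 25.7 FPKM, and most neighbours in the order between these overlapped in their 3 libraries. Summed by family, with shared loci other than the merged one included, H4 reached 1908 ± 107 FPKM (SD, n = 3), H3.1 1808 ± 119, H3.3 2273 ± 84.7 and H2B 2244 ± 112. The H2A genes divided into canonical H2A at 474 ± 31.8, H2A.W at 485 ± 14.7 and H2A.Z at 424 ± 33.8 FPKM.

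The tissue label was checked with marker genes. All 8 meristem markers (among them STM, CLV3 and LFY) had a mean of at least 1 FPKM, but they moved in both directions. In cycloheximide WUS, LFY and UFO rose (log2 fold changes of 0.75, 0.62 and 0.75), and STM and KNAT1 fell (-0.78 and -0.76). With both compounds 3 rose and 5 fell against untreated. Between the treated groups the 2 that changed, TFL1 and FD, fell (-1.85 and -0.89). The sum of all 8 was 664 to 723 FPKM in untreated libraries, 543 to 668 in cycloheximide and 337 to 393 with both compounds. Of 4 anther markers 1 reached a mean of 1 FPKM, with sums of 2.64 to 7.71, 0.911 to 7.40 and 0.780 to 1.01 FPKM. None of the 3 pollen and sperm markers did, the sperm H3 gene MGH3 being listed at 0 in the untreated and cycloheximide libraries. Green-tissue markers summed to 3354 to 3607 FPKM untreated, 2026 to 2188 in cycloheximide and 1643 to 2404 with both, and the part of this and of the meristem-marker difference in the histone results was not tested.

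Replicate 1 of both treated groups stood apart for histone genes. Cycloheximide replicate 1 had the highest value of its group for 38 of 39 histone genes (97.4%) against 43.3% of all tested loci, and dexamethasone + cycloheximide replicate 1 for 35 of 39 (89.7%) against 41.9%. Untreated replicate 1 was highest for 12 of 39 (30.8%) against 42% of all tested loci. The H4 sum illustrates this: relative to the untreated mean it was 1.29 in cycloheximide replicate 1 and 0.897 and 0.845 in replicates 2 and 3, and with both compounds 1.3, 0.894 and 0.947. Among 14 S-phase replication genes cycloheximide replicate 1 was highest for 7, and among 10 mitotic genes for 9. It was also highest for 17 of 22 chaperones and remodellers and for 4 of 5 tested histone genes outside the 39. With both compounds replicate 1 was highest for 4, 9, 13 and 4 genes of these lists, in the same order. The pattern was thus not confined to the 39 genes. The class counts of each comparison are given with all libraries and without replicate 1 of every group, a choice made after seeing the data.

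**Figure D2:**
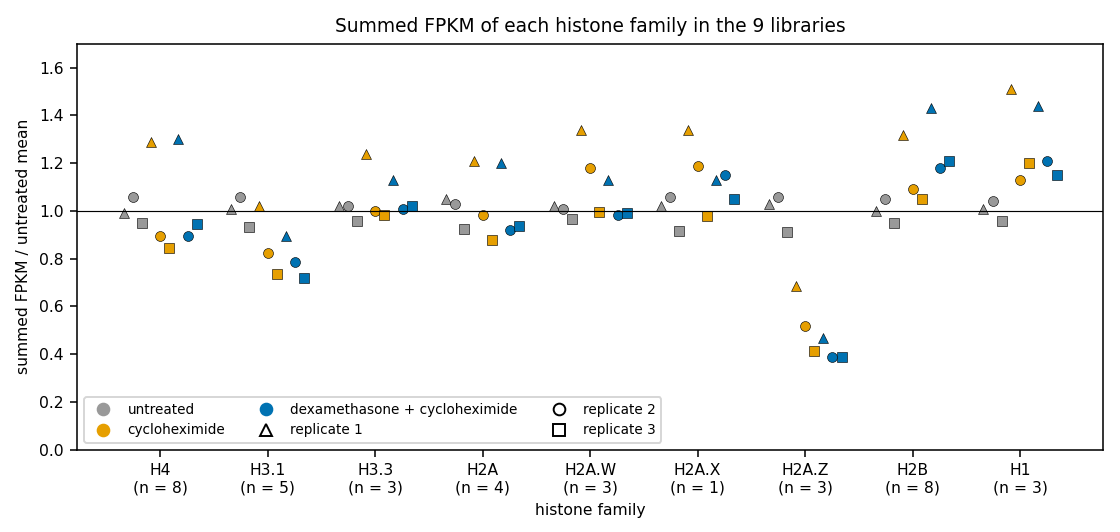
Summed FPKM of each histone family (x axis) in each of the 9 libraries, divided by the untreated mean (y axis, linear, from 0); colours are groups, and triangles, circles and squares are replicates 1, 2 and 3. The H2A.Z sums of all 6 treated libraries lie below those of the untreated ones, and triangles of the treated groups lie highest in most families.

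In cycloheximide the 3 H2A.Z mRNAs fell, and the median replication-dependent histone mRNA was close to its untreated level. Of the 25 replication-dependent genes 4 rose and none fell by limma's test at adjusted p under 0.05, with a median log2 fold change of 0.06 against -0.05 over all tested loci. Of the 11 variants 2 rose and 4 fell, and of the 3 H1 genes 1 rose. The median of the variants was -0.04 over the 10 outside the merged locus and 0.15 with that locus, so its sign rests on an entry that is not H2AXA alone. Much of the transcriptome differed between these groups, for which there was no vehicle-only control. Of all tested loci 54.7% were called, 26.5% as rising and 28.2% as falling, against 28.2% of the histone genes (7 rose, 4 fell, 28 not called). Without replicate 1 of every group, 4 replication-dependent genes fell and 4 rose, the class median was -0.10, and 51.4% of all tested loci were called. The falls were the H4 genes AT1G07660 and AT3G45930, the H3.1 gene AT5G10390 and the H2A gene HTA13 (adjusted p = 0.0185 to 0.0382). AT5G10390 was also called under other settings, given with its values below. Variants then had 2 rises and 4 falls, and no H1 gene was called.

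**Figure D3:**
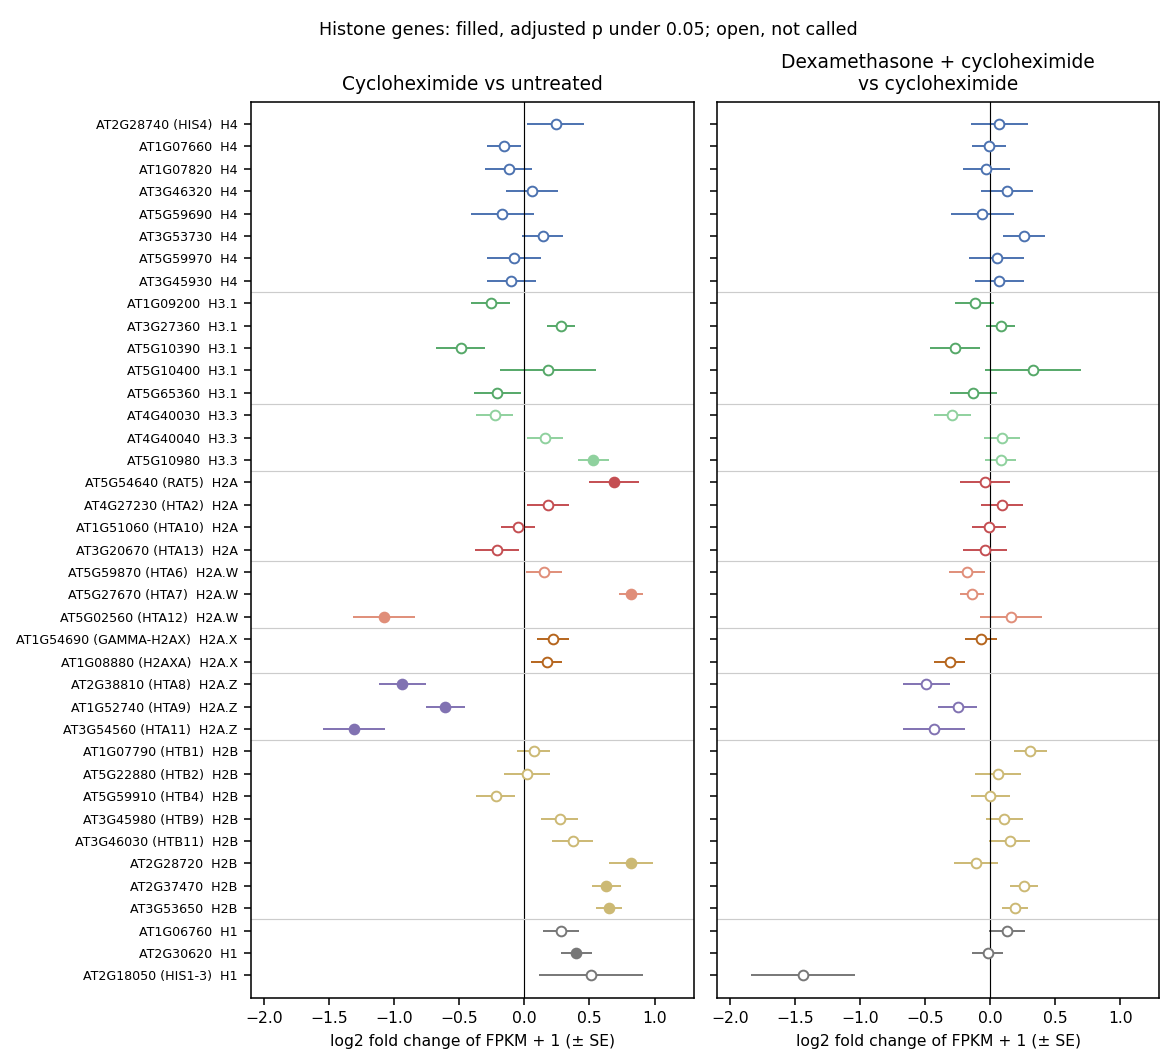
Log2 fold change of FPKM + 1 with its SE (x axis) for each of the 39 histone genes, grouped by family, for cycloheximide against untreated (left) and dexamethasone + cycloheximide against cycloheximide (right); filled points passed adjusted p under 0.05. On the left 7 genes rose and 4 fell, all 3 H2A.Z genes among the latter; on the right no point is filled.

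None of the 8 H4 genes passed the test, with log2 fold changes from -0.17 to 0.24 (median -0.09). HIS4 (AT2G28740) had 334, 368 and 294 FPKM in untreated libraries and 489, 349 and 346 in cycloheximide (0.24 ± 0.22 SE, adjusted p = 0.388). Its cycloheximide replicate 1 was above every untreated library, while replicates 2 and 3 lay within their range. AT5G59690, the most abundant H4 gene, had 381, 418 and 374 FPKM untreated and 479.7, 303 and 290.2 in cycloheximide (-0.17 ± 0.24, adjusted p = 0.592), with groups that overlapped.

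None of the 5 H3.1 genes was called. AT1G09200 had 1024, 1071 and 988 FPKM untreated and 1015, 817 and 757 in cycloheximide, a log2 difference of -0.26 ± 0.15 (adjusted p = 0.180). AT5G10390 came nearest, with 186, 212 and 170.4 FPKM untreated and 172, 125 and 112 in cycloheximide (-0.49 ± 0.19, adjusted p = 0.0548). Only replicate 1 of the treated group reached the untreated range. The call at AT5G10390 turned on settings: it passed without cycloheximide replicate 1 (adjusted p = 0.0116), without dexamethasone + cycloheximide replicate 1 or 2, without loci under 300 bp (0.0476), with quantile normalization (0.0228), with equal sums (0.0183), and when replicate was added to the fit as a block (0.0363).

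The H3.3 genes, which encode 1 protein, differed among themselves. AT5G10980 rose, from 427, 428 and 394 FPKM to 697, 579 and 539, by 0.53 ± 0.12 (adjusted p = 0.00716), and its groups did not overlap. AT4G40040 had 970.5, 953 and 873 FPKM untreated and 1185, 964 and 983 in cycloheximide (0.16 ± 0.14, adjusted p = 0.380). AT4G40030 had 917, 949 and 909 FPKM and then 933, 730.4 and 714 (-0.23 ± 0.14, adjusted p = 0.203). Both of these overlapped between groups. H3.3 genes made up 55.7% ± 0.812 (SD, n = 3) of the summed H3 FPKM untreated and 61.2% ± 1.36 in cycloheximide, a share with no test of its own here.

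Of the canonical H2A genes, RAT5 (AT5G54640, HTA1), which was found through its role in Agrobacterium transformation, rose, and HTA2, HTA10 and HTA13 were not called. RAT5 had 45.8, 40.9 and 35.8 FPKM untreated and 87.2, 58.0 and 57.2 in cycloheximide, a difference of 0.69 ± 0.19 (adjusted p = 0.0162). All 3 treated libraries were above all untreated ones, but without untreated replicate 3 it missed the threshold (adjusted p = 0.0549). HTA2, HTA10 and HTA13 had log2 fold changes of 0.18, -0.05 and -0.21.

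Of the 8 H2B genes 3 rose (37.5%, where 26.5% of all tested loci did) and none fell, with a median log2 fold change of 0.32. AT2G37470 went from 201, 225 and 219.7 FPKM to 362, 339 and 299 (0.63 ± 0.11, adjusted p = 0.00172). AT2G28720 went from 44.3, 69 and 53.9 FPKM to 98.4, 97.4 and 97.6 (0.82 ± 0.17, adjusted p = 0.00430). The locus of AT3G53650 went from 72.2, 70.7 and 75.0 FPKM to 131, 109 and 105 (0.65 ± 0.10, adjusted p = 0.000894). In all 3 the lowest treated library was above the highest untreated one, and this also held for HTB11 and HTB9. The share of all tested loci whose groups do not overlap was not computed, here or for the other histone genes. HTB11 (0.37 ± 0.16, adjusted p = 0.0785) and HTB9 (0.27 ± 0.14, adjusted p = 0.146) were not called, and HTB1, HTB2 and HTB4, the most abundant H2B gene, had values of 0.07, 0.02 and -0.22.

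All 3 H2A.Z genes fell in cycloheximide, where 28.2% of all tested loci did, with a median log2 fold change of -0.94. HTA11 (AT3G54560) had 165, 183 and 151 FPKM untreated and 95.6, 66.9 and 45.2 in cycloheximide (-1.31 ± 0.24, adjusted p = 0.00200). HTA8 (AT2G38810) had 90.8, 86.4 and 73.6 FPKM and then 53.2, 45.6 and 32.4 (-0.94 ± 0.18, adjusted p = 0.00279). HTA9 (AT1G52740) had 179, 182 and 160.5 FPKM and then 141, 107 and 96.7 (-0.61 ± 0.15, adjusted p = 0.00863). For each gene the highest treated library, replicate 1, was below the lowest untreated one. Summed H2A.Z was 424 ± 33.8 FPKM untreated and 228 ± 58.0 in cycloheximide. Its share of the FPKM of all H2A genes except H2AXA was 28.6% ± 0.753 and 16.2% ± 1.33 (SD, n = 3). In whole inflorescences, fewer cells that express a gene and less RNA per cell cannot be told apart.

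The other H2A variants moved in both directions. HTA7 (AT5G27670), an H2A.W gene, rose from 59.1, 67.1 and 68.8 FPKM to 121, 121 and 104 (0.82 ± 0.09, adjusted p = 0.000176). HTA12 (AT5G02560), another H2A.W gene, fell from 28.3, 29.7 and 19.3 FPKM to 14.7, 9.23 and 10.9 (-1.08 ± 0.24, adjusted p = 0.00514). Neither overlapped between groups. HTA6, the most abundant H2A.W gene, had 409, 393 and 380.1 FPKM untreated and 515, 440.2 and 367 in cycloheximide (0.15 ± 0.14, adjusted p = 0.400). GAMMA-H2AX (AT1G54690) was not called (0.22 ± 0.12, adjusted p = 0.167).

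**Figure D4:**
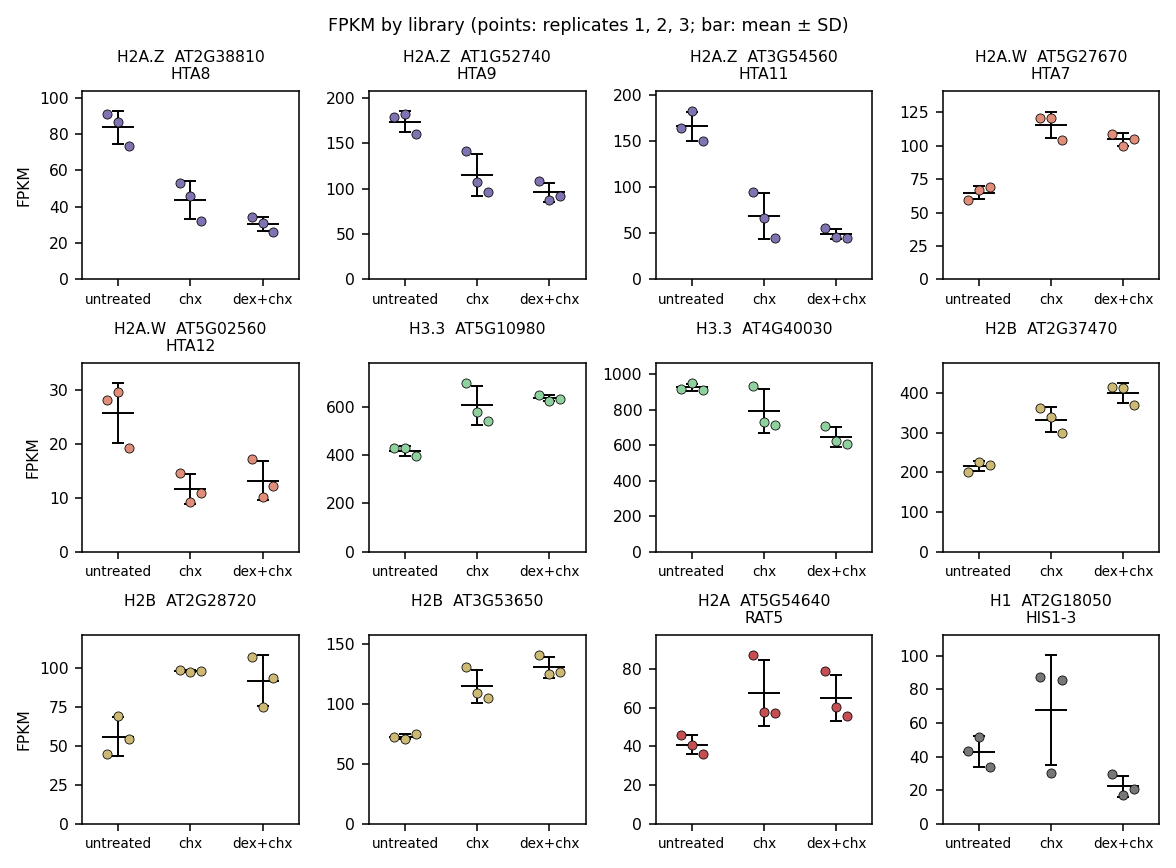
FPKM (y axis, linear, from 0, own scale per panel) of 12 histone genes in each library of the untreated, cycloheximide (chx) and dexamethasone + cycloheximide (dex+chx) groups; points are replicates 1, 2 and 3 from left to right, and bars are mean ± SD. HTA8, HTA9 and HTA11 are lower in every treated library than in any untreated one, and HTA7, AT5G10980 and the 3 H2B genes shown are higher.

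Among the linker histones AT2G30620 rose, from 161, 176 and 175 FPKM to 262, 219 and 198 (0.40 ± 0.12, adjusted p = 0.0255). It was called in 5 of 9 fits that each left out 1 library, and lost without cycloheximide replicate 1 or 2 or untreated replicate 1 or 2 (adjusted p = 0.0544 to 0.0847). AT1G06760, the most abundant H1 gene, was not called (0.28 ± 0.14, adjusted p = 0.132). HIS1-3 (AT2G18050), a linker histone known to be induced by drought, had 43.5, 51.8 and 33.6 FPKM untreated and 87.5, 30.0 and 85.5 in cycloheximide (0.51 ± 0.40, adjusted p = 0.308), with replicate 2 far below the other treated libraries. Without that library the rise was called (adjusted p = 0.0126).

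Members that hold CCACGTCA numbered 7, of which 3 rose and none fell (median log2 fold change 0.37): AT2G28720, AT2G37470 and AT5G10980. The other 32 had 4 rises and 4 falls (median 0.07). With the octamer, 1 of 10 rose, RAT5, and none fell (median -0.11). Over all tested loci 26.5% rose and 28.2% fell. Of the 7 genes with CCACGTCA 4 are H2B genes, so element and family cannot be told apart. HTB2 holds the element and had a log2 fold change of 0.02, and the H2B locus of AT3G53650, a gene without it, rose. These are descriptions over genes that share sequence, with no test.

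Genes that replicate DNA and handle histones are set beside the histone classes here. Of 14 tested S-phase replication genes 13 fell in cycloheximide (92.9%, where 28.2% of all tested loci did) and none rose. Their median log2 fold change was -1.11 against 0.06 for the replication-dependent histones and -0.05 for all tested loci. PCNA1, the sliding clamp of DNA polymerases, had 62.8 ± 7.04 FPKM (SD, n = 3) untreated and 11.3 ± 3.31 in cycloheximide (-2.40 ± 0.19 SE, adjusted p = 2.26e-05). Its paralog PCNA2, in a locus of 2 genes, fell by 1.95 on the log2 scale (adjusted p = 1.3e-05). The helicase subunits MCM2 and PRL (MCM7) changed by -1.09 ± 0.07 (adjusted p = 1.05e-05) and -1.27 ± 0.12 (adjusted p = 5.16e-05), the latter in a locus of 3 genes. E2FB, under the RefSeq symbol E2F1, was the S-phase gene not called (-0.15 ± 0.17, adjusted p = 0.480). The difference between this list and the histone class was not tested.

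Of 22 tested histone chaperones and remodellers 13 fell and 1 rose, with a median of -0.31. The share called, 63.6%, was near the 54.7% of all tested loci, of which 28.2% fell. ASF1B, a carrier of H3 and H4, went from 45.7 ± 1.21 FPKM to 23.0 ± 2.61 (-0.97 ± 0.09, adjusted p = 5.01e-05), and FAS1, the large subunit of the H3.1 depositor CAF-1, from 9.38 ± 0.597 to 5.04 ± 0.643 (-0.79 ± 0.10, adjusted p = 0.000289). NRP1, a chaperone of H2A and H2B, went from 269 ± 10.2 to 153 ± 23.4 FPKM (-0.82 ± 0.12, adjusted p = 0.000622), in a locus of 2 genes, and the assembly protein gene NAP1;1 by -0.54 ± 0.08 (adjusted p = 0.000690). SWC2, a subunit of the SWR1 complex that installs H2A.Z, rose by 0.39 ± 0.08 (adjusted p = 0.00348), also in a locus of 2 genes, while HIRA, of the H3.3 deposition complex, was not called (0.07 ± 0.09, adjusted p = 0.552). Of 10 tested mitotic genes 5 fell and none rose (median -0.34), a share called of 50% beside the 54.7% of all tested loci. They were led by the kinase gene AUR1 at -0.55 ± 0.11 (adjusted p = 0.00408) and the cyclin-dependent kinase gene CDKB1;1 at -0.45 ± 0.10 (adjusted p = 0.00669).

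Histone genes outside the 39 were mostly low. Of 10 listed, 5 reached the tested level, and 3 of these rose in cycloheximide, where 26.5% of all tested loci did. AT1G13370, annotated by RefSeq only as a histone superfamily protein, went from 0.813 ± 0.358 to 10.6 ± 1.19 FPKM (2.69 ± 0.17, adjusted p = 8.02e-06). AT5G02570 went from 7.16 ± 1.2 to 20.8 ± 2.74 (1.42 ± 0.18, adjusted p = 0.000275) and AT3G09480 from 13.2 ± 1.82 to 31.1 ± 3.05 (1.18 ± 0.12, adjusted p = 0.000103). The centromeric H3 gene HTR12 (CENH3), with 48.6 ± 3.08 FPKM untreated and 43.0 ± 5.16 in cycloheximide, was not called.

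**Figure D5:**
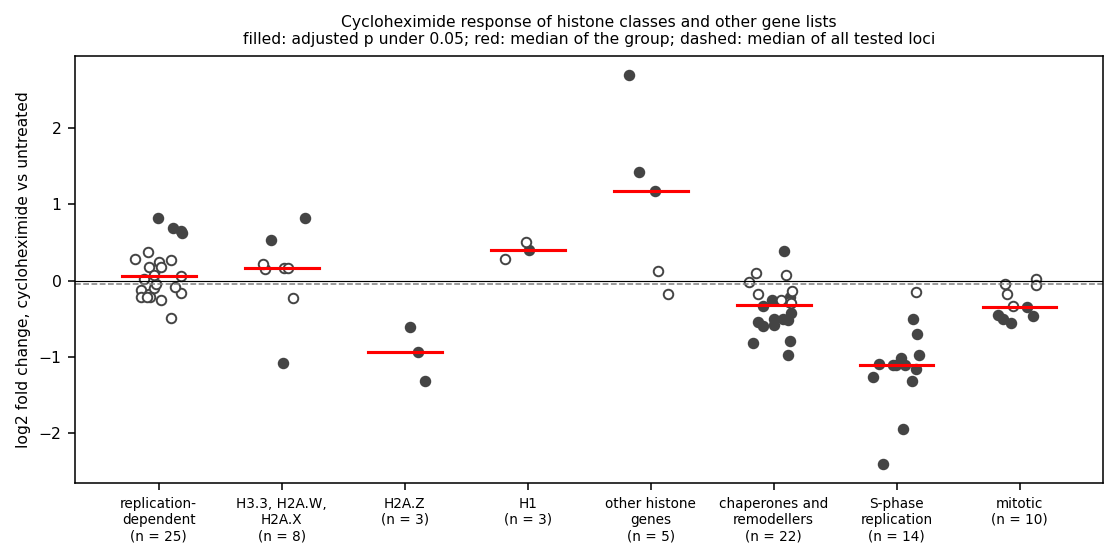
Log2 fold change in cycloheximide against untreated (y axis) for the genes of 4 histone classes and 4 other lists (x axis); filled points passed adjusted p under 0.05, red lines are medians, and the dashed line is the median of all tested loci. The replication-dependent median is 0.06, the H2A.Z median -0.94 and the S-phase median -1.11.

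Dexamethasone together with cycloheximide was compared with cycloheximide alone to ask what releasing AP1-GR changed. In the main fit, which did not pair libraries, no histone gene passed limma's adjusted threshold, where 3.69% of all tested loci did (1.91% rose, 1.78% fell). At an unadjusted p under 0.05 there were 5 of 39 histone genes, against 23.1% of all tested loci: HTA8, HIS1-3, the H2B genes HTB1 and AT2G37470, and the merged locus of H2AXA. Replication-dependent genes had a median log2 difference of 0.06, and variants one of -0.18 (-0.16 outside the merged locus), against 0.01 over all tested loci. Without replicate 1 no histone gene was called either, and 0.189% of all tested loci were. H4 genes ranged from -0.06 to 0.26 and H2B genes from -0.11 to 0.31.

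Same-numbered libraries of both treated groups tended to deviate together (r of 0.131 to 0.353). In a fit of all 9 libraries with a replicate block, 5.63% of all tested loci and 1 histone gene, HTA8, were called. That block also spans the untreated libraries, which were not taken as paired. With the block on the 6 treated libraries alone, a fit added after seeing the data, HTA8 was not called and HIS1-3 was (adjusted p = 0.0488). HTA8 had 53.2, 45.6 and 32.4 FPKM in cycloheximide and 34.4, 30.8 and 26.3 with both compounds. HTA8 was lower in 3 of 3 pairs, as was HTA9. The groups of HTA8 overlapped only between replicate 3 of the first and replicate 1 of the second. The log2 difference was -0.49 ± 0.18, with adjusted p = 0.0408 with the block on all 9 libraries and 0.159 without a block. Without cycloheximide replicate 3 HTA8 passed in the unblocked fit too (adjusted p = 0.0419), as did the merged locus. HTA11 had 55.5, 46.5 and 45.2 FPKM with both compounds (-0.43 ± 0.24, adjusted p = 0.320) and HTA9 108, 87.3 and 92.2 (-0.25 ± 0.15, adjusted p = 0.362), and both overlapped the cycloheximide group. The H2A.Z share of H2A FPKM, again without H2AXA, was 17.6%, 16.1% and 15% in cycloheximide and 13.9%, 13.9% and 13.8% with both compounds.

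HIS1-3 had the largest difference among the histone genes in this comparison, with 29.3, 17.0 and 20.8 FPKM with both compounds against 87.5, 30.0 and 85.5 in cycloheximide alone. The log2 difference was -1.44 ± 0.40, lower in 3 of 3 pairs and with groups that did not overlap, at adjusted p = 0.0837 without a block and 0.0721 with the block on all 9 libraries. With the block on the 6 treated libraries alone HIS1-3 passed (adjusted p = 0.0488). Without cycloheximide replicate 2 HIS1-3 also passed (adjusted p = 0.0308). Among H2B genes AT2G37470 had 416, 412 and 371 FPKM with both compounds, each above all cycloheximide libraries (0.26 ± 0.11, adjusted p = 0.195), and HTB1 had 538, 472 and 431 against 429.6, 348 and 381 (0.31 ± 0.13, adjusted p = 0.189). Both were higher in 3 of 3 pairs, but so was the H4 gene AT5G59970, with log2 differences of only 0.02, 0.06 and 0.08. The share of all tested loci that agree in 3 of 3 pairs was not computed.

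Of the S-phase genes 1 of 14 fell in this comparison, E2FA (RefSeq symbol E2F3, in a locus of 2 genes), from 7.89 ± 0.719 to 5.70 ± 0.578 FPKM (-0.41 ± 0.09, adjusted p = 0.0493), and the list's median was -0.29. No chaperone or remodeller, mitotic gene or other histone gene was called, with medians of -0.04, -0.20 and 0.02. ASF1B had a difference of -0.28 ± 0.09 (adjusted p = 0.107), AUR1 one of -0.30 ± 0.11 (adjusted p = 0.172) and AT5G02570 one of 0.51 ± 0.18 (adjusted p = 0.130).

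Against untreated plants, the group with both compounds had 12 histone genes that rose and 6 that fell, 46.2% of the 39, where 63.9% of all tested loci were called (30.8% rose, 33.1% fell). This comparison shares the untreated libraries with that of cycloheximide alone. H2B entries accounted for 6 of the rises, with a median log2 fold change of 0.45: AT2G37470 by 0.89 ± 0.11 (adjusted p = 0.000172), the locus of AT3G53650 by 0.84 ± 0.10 (adjusted p = 0.000144), AT2G28720, HTB11, HTB9 and HTB1. Without replicate 1 only AT2G37470 and the locus of AT3G53650 were called of these, with an H2B median of 0.35. The other rises were the locus of AT3G27360 (H3.1), AT5G10980 (H3.3, 0.61 ± 0.12, adjusted p = 0.00280), RAT5, HTA7 (0.68 ± 0.09, adjusted p = 0.000322) and the H1 genes AT1G06760 and AT2G30620. AT3G53650 covers 27.0% and AT3G27360 22.8% of loci shared with other genes, so these 2 rises may not be those of the histone genes. The falls were HTA11 (-1.74 ± 0.24, adjusted p = 0.000301), HTA8 (-1.43 ± 0.18, adjusted p = 0.000211), HTA9 (-0.85 ± 0.15, adjusted p = 0.00115), HTA12 (-0.92 ± 0.24, adjusted p = 0.00877), AT5G10390 and the H3.3 gene AT4G40030. AT5G10390, an H3.1 gene, had 133, 92.3 and 111 FPKM with both compounds (-0.76 ± 0.19, adjusted p = 0.00743). AT4G40030 had 708, 624 and 606 FPKM, all below the untreated 909 to 949 (-0.52 ± 0.14, adjusted p = 0.0127). No H4 gene was called with all libraries, the nearest being AT3G53730 (0.40 ± 0.16, adjusted p = 0.0590). AT3G53730 passed with a replicate block (adjusted p = 0.0183), with only the 6 libraries compared (0.0205) and with median-of-ratios scaling (0.0241). Without replicate 1, 3 H4 genes fell (AT1G07660, AT3G45930 and AT5G59690) and AT3G53730 rose. The replication-dependent class then had 5 rises and 7 falls in place of 8 and 1, with 59.5% of all tested loci called, and the H3.1 genes AT1G09200 and AT5G65360 and the H2A gene HTA13 were among the falls. Without untreated replicate 3 the calls were 11 instead of 18.

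FPKM is relative to the rest of each library, and the balance of rises and falls depended on scaling. In cycloheximide against untreated, rises made up 48.5% of all called loci with FPKM as deposited, 32.3% after quantile normalization and 32.4% with equal sums over loci of at least 300 bp, which moved the median of all loci from -0.05 to -0.22 and -0.24. The histone genes split into 7 rises and 4 falls as deposited, and into 6 and 5, and 4 and 5, under those scalings. For both compounds against untreated the shares were 48.3%, 33.8% and 35.1%, with histone splits of 12 and 6, 5 and 9, and 5 and 9. Between the treated groups rises were 51.7% of called loci as deposited and 64.3% with equal sums. No called histone gene changed sign under any scaling. The H2A.Z median in cycloheximide lay between -0.90 and -1.15 under the 3 alternatives, the H2B median was between 0.11 and 0.36, and the H4 median between -0.04 and -0.30, so relative to the shifted median of all loci H2A.Z stayed lower under each.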

How the data were processed

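Inflorescence RNA of 9 libraries in 3 groups of 3 was analysed, grouped by the labels alone. Per the labels' protocols, libraries were made with a TruSeq RNA v2 kit and sequenced on an Illumina HiSeq. The authors deposited FPKM per locus and library. TopHat, Cufflinks, Cuffdiff and the TAIR10 build are named in the submitters' processing notes, and no source used here gives their roles, versions or the scaling applied. Depth is therefore unknown, and precision rests on the spread between libraries. Whether the replicates came from separate plants is stated only by the label word biological.

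Each gene was taken from the locus that lists its ID, the longest on its strand. Of 33871 loci, 77 lacked the quantification status OK somewhere; those without such a gap and with a mean of at least 1 FPKM, 19569 in all, were tested. Log2(FPKM + 1) values were tested with limma 3.58.1 (R 4.3.3); this scale understates changes of low genes. The fit had an intensity trend, all 9 libraries together (6 residual degrees of freedom) and Benjamini-Hochberg adjustment over all tested loci. A call is adjusted p under 0.05. On simulated data with 100 loci changed by each size among 19569, the fit called 80% of log2 changes of 1 and 33% of 0.5 for cycloheximide against untreated, 86% and 30% for both compounds against cycloheximide, and 80% and 24% for both against untreated. Far fewer loci changed there than were called in the data (54.7%, 3.69% and 63.9% of all tested loci, in that order). The changed loci were also drawn above a minimum level, and the noise was independent between libraries. These shares are therefore not the sensitivity of the real comparisons.

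Members and gene lists were chosen with earlier results of these data known. Genes given with all values are the called members of smallest p in each class, up to 5, and those that go against their class, with up to 4 called genes of smallest p per other list, or the 2 of smallest p where none was called. E2FB, HIRA, SWC2 and CENH3, and members described beyond that rule, were named after their values were seen.

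Replicate numbers are shared between groups. The main fit held no term for them, so pairing entered only the fits with a replicate block and the counts of pairs. Deviations from the group means of same-numbered libraries correlated with r of 0.353, 0.131 and 0.213 between the treated groups, which were taken as paired, and with r of 0.0391, 0.0319 and 0.108, and 0.0580, -0.115 and 0.0622, for untreated against either, which were not. Differently numbered libraries of the treated groups had r of -0.281 to 0.113. Cycloheximide replicate 2 had 0.131 with its own number and 0.113 with replicate 3, so its pairing rests on little. Within groups, r between replicates was 0.953 to 0.980, and none was a duplicate.

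Gene names, coding sequences and windows came from RefSeq TAIR10.1, in which all 39 genes matched, and loci of the table ended within its chromosome lengths. Coding identity used Biopython 1.88. Other steps used numpy 2.4.6, pandas 2.3.3, matplotlib 3.10.9 and Python 3.11.15.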

Additional observations from a re-analysis of the deposited data

How the results depend on the processing

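Alternatives were 3 other scalings, other filters, a pseudocount of 0.1, no intensity trend, only the libraries compared, a replicate block, members alone on their locus and leaving out each library; 2 more, without replicate 1 of every group and a replicate block on 6 libraries, were added after seeing the data. The count of replication-dependent genes that fell in cycloheximide, 0 as reported, was 1 with quantile normalization, with equal sums over loci of at least 300 bp, without loci under 300 bp and with the replicate block, and 4 without replicate 1. Leaving out single libraries gave 0 to 1 falls (1 without cycloheximide replicate 1 or dexamethasone + cycloheximide replicate 1 or 2) and 3 to 5 rises. Variants that rose were 1 with equal sums and 2 to 4 without single libraries (4 without cycloheximide replicate 3), and those that fell 4 to 5. Histone genes called between the treated groups were 0 as reported, 1 with the replicate block on all or on 6 libraries (HTA8 in the former, HIS1-3 in the latter, adjusted p = 0.0488) and 0 to 2 without single libraries (1 without cycloheximide replicate 2, 2 without replicate 3). For both compounds against untreated the 18 calls became 11 to 20 without single libraries, 23 with the replicate block, 21 with only the 6 libraries compared, 14 with quantile normalization or equal sums and 13 for members alone on their locus. The variant median between the treated groups, -0.18, was -0.31 with quantile normalization and -0.31 to -0.09 without single libraries. In cycloheximide the replication-dependent median, 0.06, was -0.12 to 0.17 without single libraries, -0.15 with equal sums and -0.03 with quantile normalization. The variant median, 0.15, was 0.03 to 0.20, -0.06 with equal sums and -0.04 for members alone on their locus. Between the treated groups the replication-dependent median was -0.10 to 0.20 without single libraries and -0.07 with quantile normalization. With equal sums AT5G10980, RAT5 and AT2G30620 were no longer called in cycloheximide (adjusted p = 0.0996, 0.0825 and 0.315), and AT2G30620 also not with quantile normalization (0.122). The replicate block, besides HTA8, added AT5G10390 and the shared locus of AT3G27360 in cycloheximide, where the numbers were not taken to pair libraries. No called gene changed sign; of genes not called, 9 did in cycloheximide with equal sums and 3 with quantile normalization, and 9 between the treated groups with quantile normalization. Causes of these changes were not tested. Summing several loci per gene was not run, since no histone gene had more than 1 locus on its strand. Unknown depth limits the precision of single genes, above all of close copies.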
